A study of Mus musculus with 12 samples.

Results

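The genes described here are 10 markers of macrophage activation, namely Mrc1, Arg1, Chil3, Clec10a, Il4ra, Mgl2, Nos2, Acod1, Il10ra and Cd163. They were chosen by name from a list and not by their values, though earlier results of these data were known at the time. All 10 were found among the 12960 genes of the count table. RNA sequencing was done on bone marrow-derived macrophages (BMDMs), which are macrophages grown from mouse marrow in medium conditioned by L929 cells, a source of M-CSF. WT and AMPKβ1-/- BMDMs received vehicle (0.1% DMSO) or 10 µM PF-06409577 (PF), an activator of AMPK complexes that hold the β1 subunit, for 6 h. Each of the 4 groups has 3 libraries. The labels give no age, and they name no cytokine or microbial stimulus in any group. By the study's methods the AMPKβ1-/- mice are a knockout line in its own right and not the myeloid Cre-driven line of the same study. No source used here says whether the libraries of a group came from separate mice, so p values measure the spread between libraries, which may be technical.

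Macrophages that meet IL-4 or IL-13 signal through IL-4Rα and STAT6 and take up what is called alternative activation. Mannose receptor (Mrc1), arginase 1 (Arg1), the chitinase-like protein Ym1 (Chil3) and the galactose-type lectins Clec10a and Mgl2 are its usual markers in the mouse. Interferon γ and bacterial products instead induce Nos2, which makes nitric oxide, and Acod1, which makes itaconate. IL-10 acts through a receptor whose ligand-binding chain is Il10ra, and it raises Cd163, the scavenger receptor for haemoglobin bound to haptoglobin.

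Clec10a and Mgl2 are neighbours on chromosome 11 that share a stretch of coding sequence, and how reads are divided between them bears on both values. Clec10a lies at chr11:70156197-70170834 and Mgl2 at chr11:70130329-70137550, both on the + strand (GRCm38, GENCODE M21). Their longest shared coding run was 183 bases, in exons 6 to 8 of Clec10a (chr11:70169822-70170189) and exons 7 to 9 of Mgl2 (chr11:70136337-70136699).
Clec10a and Mgl2 shared run: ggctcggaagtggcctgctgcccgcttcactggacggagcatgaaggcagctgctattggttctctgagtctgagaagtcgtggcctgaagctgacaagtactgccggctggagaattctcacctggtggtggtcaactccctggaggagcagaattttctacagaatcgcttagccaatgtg
Of all 50-base windows in the annotated transcripts, 9.02% of those of Clec10a also occurred in another gene, mainly Mgl2, and 13.1% of those of Mgl2 did so, mainly in Clec10a. Chil3 shared 26.9% of its windows, mainly with Chil4. For Cd163 the share was 0.0726%, and for the other 6 members it was 0. All 10 members are annotated as protein-coding, and the 4 whose positions are not given elsewhere in the text are Arg1 (chr10:24915221-24927484, − strand), Chil3 (chr3:106147554-106167564, − strand), Nos2 (chr11:78920787-78960254, + strand) and Cd163 (chr6:124304656-124330527, + strand).

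RefSeq promoters (250 bases before to 50 after the start, GRCm38.p6) were matched for 6 of the 10 members by symbol. The last 100 bases before the RefSeq start are shown for the 3 of these with the highest levels per length. These 3 were shown because they differ in base composition. Their RefSeq starts lie after the GENCODE gene starts given for them elsewhere in the text. By the GENCODE positions the Il4ra stretch lies wholly inside the gene, and those of Acod1 and Mrc1 lie partly inside. Capitals mark CG pairs and a TATAAA box, a display chosen after the data were seen.
Il4ra (chr7:125552171-125552270, + strand): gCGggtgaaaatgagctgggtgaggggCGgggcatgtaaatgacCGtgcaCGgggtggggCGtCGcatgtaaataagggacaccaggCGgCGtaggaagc
Acod1 (chr14:103046912-103047011, + strand): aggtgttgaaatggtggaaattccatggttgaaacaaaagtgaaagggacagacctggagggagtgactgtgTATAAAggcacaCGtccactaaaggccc
Mrc1 (chr2:14229314-14229413, + strand): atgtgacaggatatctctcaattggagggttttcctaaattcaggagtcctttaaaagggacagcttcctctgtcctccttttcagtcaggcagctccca
The whole 300-base window of Il4ra held 25 CG pairs, more than 81.6% of all promoters, against a median of 7. Acod1 held 2 and Mrc1 held 3. The Acod1 box began 28 bases before the RefSeq start, and 3.8% of all promoters had such a box within their last 100 bases. By the GENCODE position of Acod1 the box lies inside the gene, so the 2 annotations disagree on its place. A STAT6-type motif (TTCNNNNGAA, both strands) was in 6.95% of 32851 promoters and in 0 of the 6. An NF-κB-type motif (GGGNNNNNCC) was in 50.8% of promoters and in all 6, and in Il4ra it lay after the start.

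The libraries held 8935609 to 14358180 counts in all. A count of 0 allows up to 3 counts, which is 0.196 to 0.321 CPM (the count relative to the TMM-scaled size of its library), and such a floor takes in only the error of counting. Prkab1, which encodes AMPKβ1, was at 37.3 to 45.3 CPM in the 6 WT libraries and at 6.05 to 9.42 CPM in the 6 AMPKβ1-/- libraries, so its reads fell but were not at 0. All 8 macrophage markers listed (Adgre1, Csf1r, Cd68 and others) were above the floor and summed to 25191 to 29681 CPM. The count table held 4 of 8 listed markers of neutrophils and 4 of 6 of dendritic cells. It held 2 of 7 of lymphoid cells, 5 of 6 of fibroblasts and 0 of 6 of basophils, mast cells and eosinophils. The markers of other cells that it held were low. They summed to 0.318 to 0.958 CPM for neutrophils, 0.372 to 1.37 CPM for dendritic cells, at most 0.314 CPM for lymphoid cells and 0.923 to 8.66 CPM for fibroblasts, the last highest in AMPKβ1-/- vehicle libraries (2.02 to 8.66 CPM). The trend of log2 CPM with GC content also moved with the groups. It ran from 0.37 to 0.75 per 10 GC points in WT vehicle libraries, from −0.055 to 0.39 in WT PF libraries and from −0.54 to −0.11 in the 6 AMPKβ1-/- libraries. Values with an offset for GC content and length are therefore given beside the members' results where they differ. The offset was fitted to CPM by library size with each library's mean shift left in, and was added to TMM-scaled sizes. It thus also moved the whole table down. With it the median log2 fold change of all tested genes was −0.083 for PF in WT and −0.029 for PF in AMPKβ1-/-. It was −0.054 for the difference in response, −0.23 for the genotypes with vehicle and −0.17 for them with PF. Values with the offset are to be read beside these medians.

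The markers spanned a wide range of levels. On the scale of CPM per kb of exons, which allows genes to be compared, the level in WT vehicle BMDMs was 91.6 for Il10ra, 26.2 for Il4ra, 12.7 for Acod1, 7.83 for Mrc1 and 3.84 for Clec10a. The libraries of each of these did not overlap those of the next in the order. Mgl2 followed at 0.258, Cd163 at 0.116, Arg1 at 0.0905, Nos2 at 0.0607 and Chil3 at 0.0407 CPM per kb, and each of these overlapped the next. By this measure Il10ra was above 95.6% of 12902 genes with a known length and Clec10a above 51.9%, while Arg1 was above 13.9% and Chil3 above 9.48%. The receptors for IL-4 and IL-10 were thus the most abundant of the 10 transcripts, and the enzymes and lectins that IL-4 induces in mice were among the least abundant genes of the table, with the exceptions of Mrc1 and Clec10a. The order of the upper 5 changed in 1 group. In AMPKβ1-/- PF libraries Mrc1 (10.2 CPM per kb) stood before Acod1 (8.73), with overlapping libraries, and in WT PF libraries Il4ra (17.4) and Acod1 (15.9) overlapped.

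Arg1, Chil3, Mgl2 and Nos2 had so few reads that they did not pass the low-count filter and were left out of the test. When they were tested without that filter, as an alternative, none was called in any contrast, and the smallest edgeR adjusted p was 0.0531, for Mgl2 between the genotypes with vehicle (−1.61, SE 0.67). Arg1 had estimated counts of 2, 1 and 3 in WT vehicle, 0, 0 and 2 in WT PF, 2, 3 and 3 in AMPKβ1-/- vehicle and 0, 5 and 2 in AMPKβ1-/- PF libraries. Chil3 had at most 3 counts in any library and 0 in 5 of the 12. These markers of alternative activation were thus at or near the floor in all 4 groups, and only 1 library of Arg1 was above it. Nos2 was at 1, 0 and 7 counts in WT vehicle, 5, 0 and 0 in WT PF, 2, 2 and 0 in AMPKβ1-/- vehicle and 0 in each AMPKβ1-/- PF library, so 2 WT libraries were above the floor. Mgl2 had 7, 3 and 6 counts in WT vehicle, 3, 8 and 5 in WT PF, 1, 4 and 1 in AMPKβ1-/- vehicle and 3 in each AMPKβ1-/- PF library. No group of Mgl2, Arg1, Chil3 or Nos2 stood clear of all the others, and at this depth a difference in them could be missed. The reads that Mgl2 shares with Clec10a make its counts uncertain, and the same holds for Chil3 and its neighbour Chil4, which was not analysed here.

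**Figure D1:**
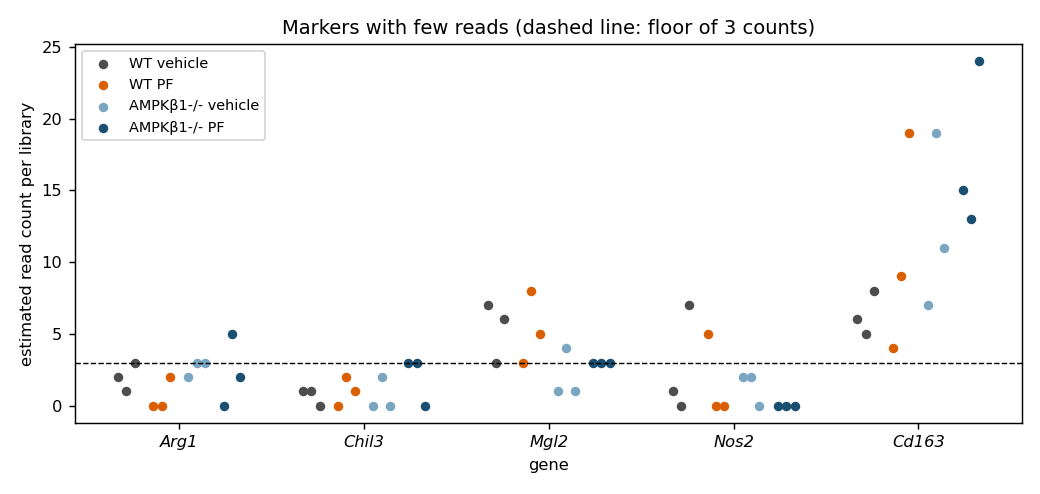
Estimated read count per library (y axis) of the 4 markers that were not tested and of Cd163 (x axis), with 1 point for each of the 3 libraries of a group, coloured by group. The dashed line is the floor of 3 counts. Arg1, Chil3, Mgl2 and Nos2 stay at or below 8 counts in every library, whereas Cd163 reaches 24.

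The first comparison asked how PF changed the markers in WT BMDMs. Il10ra, Il4ra and Clec10a fell, and their WT PF libraries did not overlap the WT vehicle libraries. Mrc1, Acod1 and Cd163 did not pass the test. Thus 3 of the 6 tested members were lower and 0 were higher, where 8.95% of the 10822 tested genes were called lower and 6.99% higher. Their median log2 fold change was −0.12, against 0.0048 over all tested genes. Over the 10787 tested genes with a known GC content, the log2 fold change fell as GC content rose (Spearman r = −0.71). The 3 members called lower had the highest GC content of the 6, at 55.9% for Il4ra, 53.1% for Il10ra and 51.8% for Clec10a. Acod1 (47.6%), Cd163 (46.9%) and Mrc1 (41.3%) had less. The split of the members thus followed the trend of the table with GC content, and its part in the split was not tested. The test was edgeR's quasi-likelihood test in 1 fit to all 12 libraries with adjustment over all tested genes, and a gene was called at an adjusted p below 0.05. In RNA from a whole culture, fewer cells that express a gene and less RNA per cell cannot be told apart.

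Il10ra, the ligand-binding chain of the IL-10 receptor (chr9:45253837-45269149, − strand), was at 311, 313 and 337 CPM in WT vehicle libraries and at 238, 223 and 217 CPM in WT PF libraries. Every PF library was below every vehicle library. The means were 320.5 ± 14.5 and 226 ± 10.8 CPM (SD, n = 3), and the log2 fold change was −0.50 (SE 0.075, edgeR adjusted p = 0.00129), or 0.705 of the vehicle level. It had the 47th smallest p of all tested genes. With the GC and length offset the log2 fold change was −0.46.

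Il4ra, the chain through which both IL-4 and IL-13 signal (chr7:125552120-125579474, + strand), was at 167, 138 and 167 CPM with vehicle and at 118, 101 and 93.9 CPM with PF in WT BMDMs. The PF libraries were again all below the vehicle libraries. The log2 fold change was −0.59 (SE 0.095, edgeR adjusted p = 0.00188), or 0.663 of the vehicle level. With the GC and length offset it was −0.44 and remained called (edgeR adjusted p = 0.00109). Il10ra and Il4ra had an adjusted p below 0.05 in WT BMDMs under every alternative tried.

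Clec10a, a receptor for galactose and N-acetylgalactosamine, was at 10.9, 11.4 and 11.0 CPM with vehicle and at 7.29, 7.67 and 4.69 CPM with PF in WT BMDMs. The vehicle libraries lay close together and the third PF library was the lowest of all 12. The log2 fold change was −0.77 (SE 0.17, edgeR adjusted p = 0.0111), or 0.585 of the vehicle level, and it was −0.80 with the GC and length offset. Without WT PF library 3 it was −0.57 and no longer passed the test (edgeR adjusted p = 0.0600), and when only the 6 WT libraries were fitted it was −0.76 (edgeR adjusted p = 0.0574). With the counts of Clec10a and Mgl2 added together, an alternative chosen after the data were seen, it was −0.74 (edgeR adjusted p = 0.0128). Mgl2 had 47 counts over the 12 libraries and Clec10a 1051.

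The mannose receptor and the markers of IL-10 and of classical activation gave other values. Mrc1 (chr2:14229392-14332057, + strand) was at 37.8, 56.4 and 55.3 CPM with vehicle and at 48.6, 59.7 and 71.5 CPM with PF in WT BMDMs, with overlapping libraries. Its log2 fold change was 0.27 (SE 0.17, edgeR adjusted p = 0.273). Mrc1 has the lowest GC content of the 10 (41.3%, against 55.9% for Il4ra), and with the GC and length offset its value turned to −0.24 (edgeR adjusted p = 0.0714), so no direction is given for it. Acod1, the enzyme that makes itaconate from cis-aconitate (chr14:103046977-103056573, + strand), was at 24.2, 30.9 and 44.5 CPM with vehicle and at 60.5, 29.7 and 34.7 CPM with PF. The first PF library was the highest of all 12, and the log2 fold change of 0.33 (SE 0.27, edgeR adjusted p = 0.393) was −0.043 without it. Cd163 had 6, 5 and 8 counts with vehicle and 4, 9 and 19 counts with PF, and its log2 fold change was 0.51 (SE 0.53, edgeR adjusted p = 0.498).

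**Figure D2:**
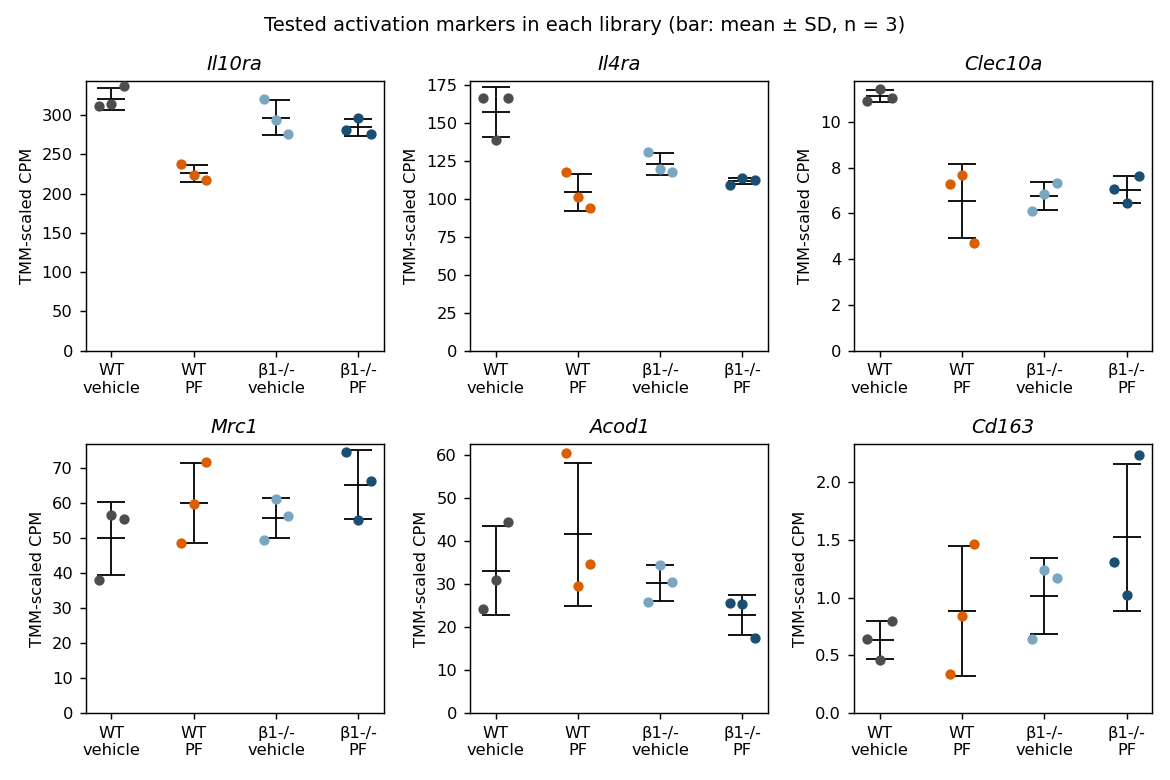
CPM scaled by TMM (y axis, from 0) of the 6 tested markers in each of the 4 groups (x axis), where points are libraries and bars are the mean and SD of 3 libraries. Il10ra, Il4ra and Clec10a are lower in all WT PF libraries than in all WT vehicle libraries, and Clec10a is at a similar level in the other 3 groups (means of 6.55 to 7.04 CPM).

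In AMPKβ1-/- BMDMs no marker was called between PF and vehicle. Of the 6 tested members 0 passed the edgeR test in either direction, 0 had an unadjusted p below 0.05, and 0 were called by DESeq2 or limma-voom. Few genes of the whole table were called in these cells, with 0.0554% higher and 0% lower, and at an unadjusted p below 0.05 there were 464 higher and 75 lower. Il10ra was at 320, 294 and 276 CPM with vehicle and at 281, 297 and 276 CPM with PF, and its log2 fold change was −0.060 (SE 0.075). Il4ra was at 131, 120 and 118 CPM with vehicle and at 109, 114 and 112 CPM with PF, and although its libraries did not overlap, the log2 fold change of −0.14 (SE 0.095) had an edgeR adjusted p of 0.982. Clec10a was at 6.11, 6.85 and 7.32 CPM with vehicle and at 7.06, 6.44 and 7.63 CPM with PF (log2 fold change 0.058, SE 0.18). The vehicle and PF libraries of Il10ra and of Clec10a overlapped.

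Mrc1 was at 49.5, 61.0 and 56.3 CPM in AMPKβ1-/- vehicle libraries and at 74.4, 55.0 and 66.1 CPM in AMPKβ1-/- PF libraries (log2 fold change 0.23, SE 0.17). Acod1 was at 25.9, 34.4 and 30.6 CPM with vehicle and at 25.7, 25.5 and 17.5 CPM with PF (log2 fold change −0.41, SE 0.28). All PF libraries of Acod1 were below the vehicle libraries, but the difference did not pass the test (edgeR adjusted p = 0.982). Cd163 had 7, 19 and 11 counts with vehicle and 15, 13 and 24 counts with PF (log2 fold change 0.54, SE 0.43).

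Whether the response to PF differed between the genotypes was tested as the difference of both responses, WT minus AMPKβ1-/-. No member passed at an adjusted p below 0.05 in edgeR, where 0.176% of all tested genes were called higher and 0.240% lower. Il10ra, Il4ra and Clec10a had an unadjusted p below 0.05, so 3 of the 6 did. For Il10ra the difference was −0.44 (SE 0.11, edgeR adjusted p = 0.0767), for Il4ra −0.46 (SE 0.13, edgeR adjusted p = 0.149) and for Clec10a −0.83 (SE 0.25, edgeR adjusted p = 0.153). DESeq2 called Il10ra alone (DESeq2 adjusted p = 0.00842), as did edgeR with the GC and length offset (edgeR adjusted p = 0.0336), and limma-voom called 0. With that offset 79 of all tested genes were called lower in this contrast and 26 higher (median −0.054), against 26 and 19 without it. The adjusted p of Il10ra ranged from 0.00842 to 0.256 over the alternatives. By this test the fall of these markers is not shown to be particular to WT BMDMs. The difference was 0.73 (SE 0.39) for Acod1, 0.040 (SE 0.24) for Mrc1 and −0.031 (SE 0.76) for Cd163, and the smallest of their edgeR adjusted p values was 0.415.

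**Figure D3:**
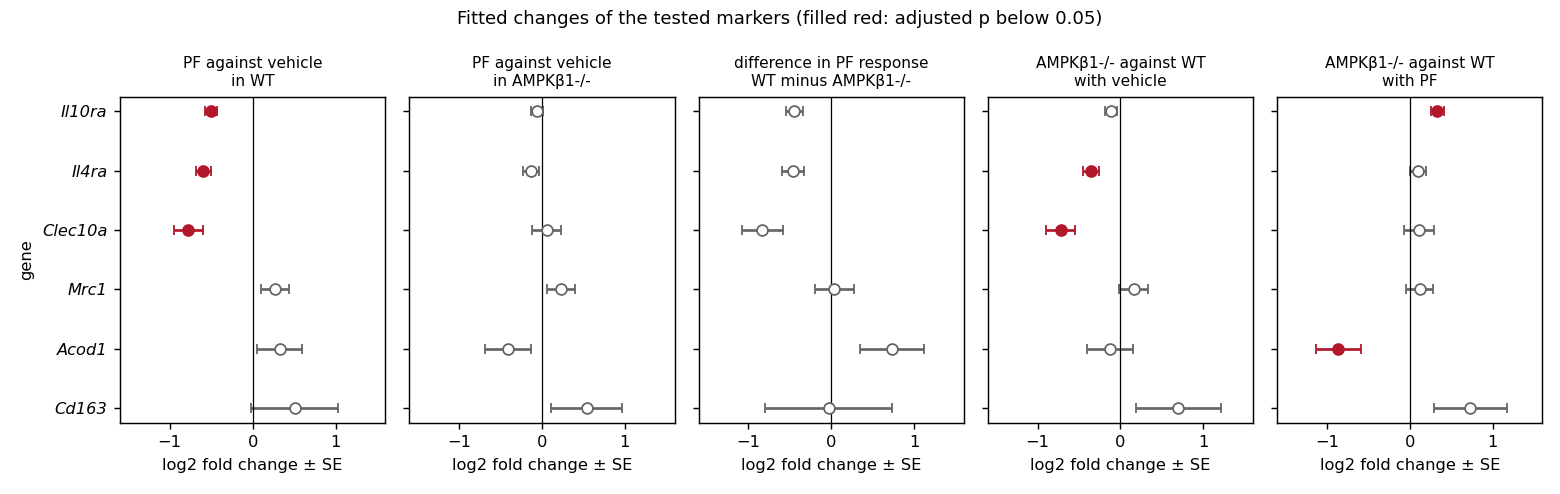
Log2 fold change with its SE (x axis) of the 6 tested markers (y axis) in the 5 contrasts, where filled red points have an edgeR adjusted p below 0.05. Il10ra, Il4ra and Clec10a lie between −0.77 and −0.50 for PF in WT and between −0.14 and 0.058 for PF in AMPKβ1-/- BMDMs.

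The genotypes were also compared with each other under vehicle. Clec10a and Il4ra were lower in AMPKβ1-/- than in WT BMDMs and did not overlap between them, and no member was called higher. With 2 of 6 members lower and 0 higher, the share was close to that of the whole table, where 30.0% of tested genes were called lower and 29.7% higher. Clec10a had means of 11.1 ± 0.280 CPM in WT and 6.76 ± 0.610 CPM in AMPKβ1-/- vehicle libraries (SD, n = 3), and its log2 fold change was −0.72 (SE 0.17, edgeR adjusted p = 0.00220). Il4ra had means of 157 ± 16.3 and 123 ± 7.15 CPM, and its log2 fold change was −0.36 (SE 0.095, edgeR adjusted p = 0.00452). Scaling by library size alone moved the median of all genes to 0.18 and the value of Il4ra to −0.15, which was no longer called (edgeR adjusted p = 0.138), while Clec10a was called under every alternative. The vehicle level of Il10ra did not pass the test between the genotypes (log2 fold change −0.11, SE 0.075, edgeR adjusted p = 0.210).

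Mrc1 depended on the handling of GC content between the genotypes. Its log2 fold change with vehicle was 0.16 (SE 0.17, edgeR adjusted p = 0.443) on the TMM scale and −1.14 (SE 0.081, edgeR adjusted p = 1.32e-08) with the GC and length offset, where the median of all genes was −0.23. No direction is given for Mrc1 for this reason. Acod1 (−0.13, SE 0.27) and Cd163 (0.70, SE 0.51) did not pass the test. The summed fibroblast markers were highest in the AMPKβ1-/- vehicle libraries, and their part in these differences was not tested.

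**Figure D4:**
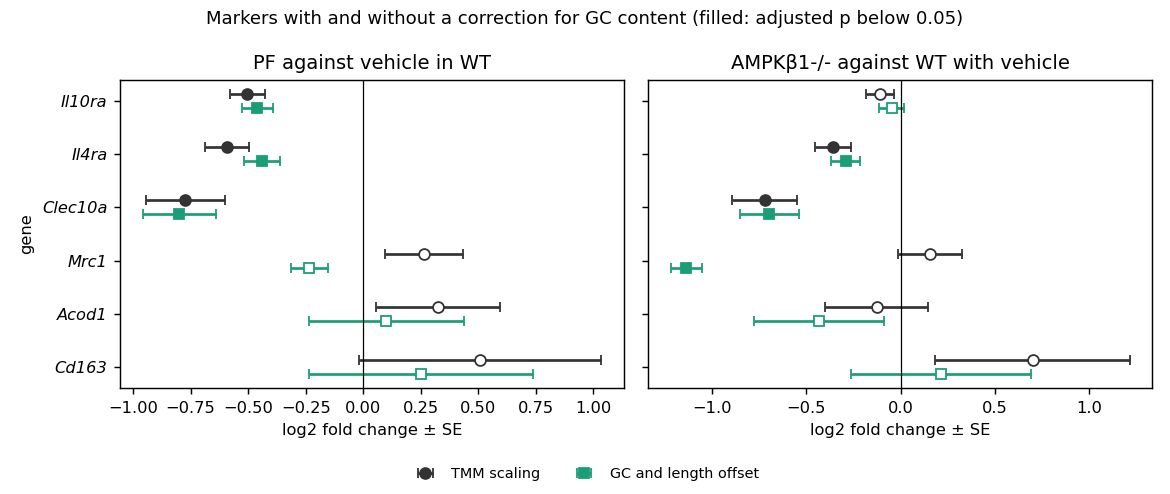
Log2 fold change with its SE (x axis) of the 6 tested markers (y axis) on the TMM scale (black circles) and with the GC and length offset (green squares), for PF in WT on the left and for the genotypes with vehicle on the right, with filled symbols for an edgeR adjusted p below 0.05. Il10ra, Il4ra and Clec10a are called on both scales on the left, where Il4ra moves from −0.59 to −0.44, and Il4ra and Clec10a on both scales on the right. Mrc1 moves from 0.27 to −0.24 on the left and from 0.16 to −1.14 on the right. The offset also moves the median of all tested genes, to −0.083 on the left and −0.23 on the right.

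With PF in both genotypes, Il10ra was higher in AMPKβ1-/- than in WT BMDMs and Acod1 was lower. The table as a whole had 24.1% of tested genes called higher and 22.9% lower, so 1 of 6 members in each direction is near that background. Il10ra had means of 285 ± 10.7 and 226 ± 10.8 CPM (SD, n = 3), and its log2 fold change was 0.33 (SE 0.075, edgeR adjusted p = 0.00224). Acod1 had means of 22.9 ± 4.69 and 41.6 ± 16.6 CPM, and its log2 fold change was −0.86 (SE 0.27, edgeR adjusted p = 0.0213). The call of Acod1 rested on single libraries. It was −0.49 (edgeR adjusted p = 0.118) without WT PF library 1 and −0.70 (edgeR adjusted p = 0.0734) without AMPKβ1-/- PF library 3. Clec10a (0.11, SE 0.18) and Il4ra (0.10, SE 0.095) did not pass the test, and Il4ra was called with library size alone (0.25, edgeR adjusted p = 0.0215), where the median of all genes was 0.15. Cd163 (0.73, SE 0.44, edgeR adjusted p = 0.183) was at 1.35 and called without WT PF library 3 (edgeR adjusted p = 0.0337). Mrc1 was at 0.12 (SE 0.17) on the TMM scale and at −0.97 with the GC and length offset (edgeR adjusted p = 8.26e-09). This contrast shares the WT PF libraries with the first comparison and the AMPKβ1-/- PF libraries with the second, so it is no separate evidence of either.

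The threshold of the study's methods also asks for a log2 fold change above 0.8 or below −0.8. It was passed by 1.52% of all tested genes for PF in WT, 17.8% for the genotypes with vehicle and 14.3% for the genotypes with PF. Of the members it left 0 in the first, 0 in the second and Acod1 in the third.

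Over the 12 libraries, Il4ra varied together with Il10ra (Pearson r = 0.81) and with Clec10a (r = 0.81), and opposite to Mrc1 (r = −0.70). These values describe log2 CPM of libraries that share group, depth and GC trend. The genes most like each member, among 7833 candidates with at least 10 CPM, were Pxn (r = 0.99) and Ap1b1 (0.98) for Il4ra, Xylt2 (0.98) and Csad (0.97) for Il10ra, Dok2 (0.92) and Lsr (0.92) for Clec10a, Mpeg1 (0.91) and Lancl2 (0.90) for Mrc1, and Pip4p2 (0.93) and Tbcel (0.90) for Cd163. For Acod1 they were Cxcl10 (0.97), a chemokine induced by interferon, and Cmpk2 (0.96), an interferon-induced kinase. Cxcl10 was at 45.3 CPM in WT PF library 1, where Acod1 was highest, and at 13.1 to 15.1 CPM in the other 2 WT PF libraries. It was at 4.37 CPM in AMPKβ1-/- PF library 3, where Acod1 was lowest. The same pair of libraries therefore held the extremes of both genes, and these are the libraries on which the call of Acod1 rested. Cxcl10 was picked for its likeness to Acod1 over these same libraries, so the shared extremes are no separate observation.

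The pathways around the members were described from lists written from general knowledge. For PF in WT BMDMs 8.95% of all tested genes were called lower and 6.99% higher. The counts of this list and of those below are to be read beside these shares. In the path from the IL-4 and IL-13 receptors to STAT6, PF lowered 3 of the 9 tested genes in WT BMDMs and raised 0 (median −0.18). These were the kinases Tyk2 (−0.35, SE 0.091) and Jak3 (−0.38, SE 0.12) and the phosphatase Ptpn6 (−0.30, SE 0.074), with edgeR adjusted p values of 0.0228, 0.0413 and 0.0181. None of these 3 was called with the GC and length offset. With it 184 of the 10822 tested genes were called higher for PF in WT BMDMs and 689 lower (median −0.083), against 756 and 969 on the TMM scale. The offset thus favoured lower genes, here and in the lists below. The partner chains Il2rg (−0.19, SE 0.077) and Il13ra1 (0.23, SE 0.38) and the factor Stat6 (−0.18, SE 0.070) did not pass the test, and Il2rg was called with the offset (−0.38, edgeR adjusted p = 0.00405). The fall of Il4ra thus stood beside a smaller value for its partner Il2rg, and the difference between them was not tested. Il4 and Il13 were not analysed here. Of the 10 tested targets of alternative activation other than the members, edgeR called 0 (1 at an unadjusted p below 0.05, 1 by DESeq2 and 0 by limma-voom), with a median of −0.23.

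In the path from the IL-10 receptor to STAT3, PF lowered 4 of 9 tested genes in WT BMDMs and raised 0 (median −0.33). Over all tested genes 8.95% were called lower and 6.99% higher. Tyk2 is counted in this list and in the STAT6 list, so the counts of both are not separate. Bcl3, a nuclear partner of NF-κB, was at −0.70 (SE 0.11, edgeR adjusted p = 0.00225), the corepressor Sbno2 at −0.40 (SE 0.086), Tyk2 at −0.35 and Stat3 at −0.31 (SE 0.091, edgeR adjusted p = 0.0338). Of these 4, Bcl3 alone was called with the GC and length offset (−0.54). The second receptor chain Il10rb was at 0.16 (SE 0.070, edgeR adjusted p = 0.118), so the chains Il10ra and Il10rb had values of opposite sign, and Il10 itself was at 3.10 CPM with vehicle and at 1.80 CPM with PF (−0.78, SE 0.28, edgeR adjusted p = 0.0690).

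On the classical side, edgeR called 0 of the 8 tested genes of signalling from the interferon γ receptor (1 at an unadjusted p below 0.05, 1 by DESeq2 and 0 by limma-voom). Ifngr1 (−0.092, SE 0.092) and Ifngr2 (0.074, SE 0.079) did not pass the test, and Ifng was not analysed here. Of 12 tested classical targets other than the members, the costimulatory ligand Cd86 rose (0.68, SE 0.19, edgeR adjusted p = 0.0303) and the transcription factor Irf5 fell (−0.39, SE 0.082, edgeR adjusted p = 0.00876). With the GC and length offset, which favoured lower genes, Irf5 was called (−0.25) and Cd86 was not (0.25).

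Around Arg1 and Nos2, 3 of 17 tested genes of arginine, polyamine and nitric oxide metabolism rose with PF in WT BMDMs and 1 fell. The arginine transporter chain Slc7a7 fell (−0.59, SE 0.10, edgeR adjusted p = 0.00358), also with the offset (−0.56). The spermine synthase Sms (0.45, SE 0.13), the polyamine acetylase Sat1 (0.26, SE 0.074) and the biopterin enzyme Pts (0.44, SE 0.13) rose, and none of the 3 was called with the offset, where Sat1 turned to −0.17. Around Acod1, 1 of 14 tested genes was called, the dicarboxylate carrier Slc25a10 (−0.41, SE 0.10, edgeR adjusted p = 0.0173), which was not called with the offset (−0.23).

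Among 10 tested C-type lectins and galectins beside Mrc1, Clec10a and Mgl2, Clec4d (0.44, SE 0.076) and Clec4e (0.63, SE 0.15) rose with PF in WT BMDMs and Clec4a1 fell (−0.55, SE 0.087, edgeR adjusted p = 0.00187). With the offset Clec4a1 was at −1.07, Clec4e was not called (0.13) and Clec4d turned to −0.15. The lectins thus did not move as 1 group, and Clec10a shared its direction with Clec4a1. Of 7 tested genes of haemoglobin and haem clearance, the haemopexin receptor Lrp1 fell (−0.47, SE 0.11) and the iron exporter Slc40a1 rose (0.51, SE 0.16), and neither was called with the offset. The medians of the remaining lists for PF in WT BMDMs were 0.042 for the interferon γ path, −0.015 for the classical targets, 0.031 for the arginine list, 0.023 for the itaconate neighbourhood, 0.23 for the lectins and 0.053 for the haem list, against 0.0048 over all tested genes. In AMPKβ1-/- BMDMs edgeR called 0 genes of any of these lists between PF and vehicle, with at most 2 of a list at an unadjusted p below 0.05, 1 in 1 list by DESeq2 and 0 by limma-voom.

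Between the genotypes with vehicle, genes of these lists were called more often, as was the table as a whole. Of all tested genes 29.7% were called higher and 30.0% lower, and the list counts are to be read beside these shares. The median log2 fold change was −0.026 over all tested genes, −0.41 for the STAT6 path, −0.20 for the IL-10 path, −0.30 for the itaconate neighbourhood, −0.33 for the arginine list, 0.70 for the lectins, 0.0013 for the alternative targets, 0.12 for the interferon γ path, 0.12 for the classical targets and −0.033 for the haem list. In the path to STAT6, 5 of 9 were lower in AMPKβ1-/- BMDMs and 2 higher. Il2rg was lower (−0.41, SE 0.077), as were Tyk2 (−0.55), Jak3 (−0.60), Ptpn6 (−0.41) and Stat6 (−0.31, SE 0.070), and all 5 were called with the GC and length offset. With that offset 4725 of the 10822 tested genes were called lower in this contrast and 737 higher (median −0.23). A call of a lower gene with it therefore adds little here. Il4ra was lower in the same contrast, so both chains of the receptor that Il4ra forms with Il2rg were lower there. Il13ra1 was higher (1.22, SE 0.35), but was at 0.015 with the offset. Of the IL-10 path 3 of 9 were lower and 1 higher, and neither Il10rb (−0.11, SE 0.070) nor Stat3 (−0.20, SE 0.091) passed the test. Of the itaconate neighbourhood 9 of 14 were lower and 3 higher, with Slc25a1, which carries citrate out of mitochondria (−0.68, SE 0.093), Sdhb (−0.58) and Cs (−0.38) lower on both scales. Of the arginine list 10 of 17 were lower and 3 higher, among them Asl (−0.69, SE 0.10), which releases arginine in the urea cycle.

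Of the lectins 8 of 10 were higher in AMPKβ1-/- vehicle libraries and 1 lower, the galectin Lgals3 (−0.65, SE 0.090). Beside this and the counts that follow, 29.7% of all tested genes were called higher and 30.0% lower. Clec4d (0.85), Clec4a2 (1.01) and Clec4e (1.20) were higher on the TMM scale, but with the GC and length offset they were at −0.23, −0.32 and 0.019, so no direction is given for them. On the TMM scale Clec10a was lower, as Lgals3 was, where 8 of the 10 others were called higher. The value of Clec10a with the offset was −0.70. The alternative targets had 3 of 10 higher and 2 lower, with Fn1 (1.33) and Myc (0.50) higher and Tgm2 (−0.60) and Egr2 (−0.50) lower. The interferon γ path had 3 of 8 higher and 1 lower, with Jak2 (1.24) and Jak1 (0.30) higher and Irf1 (−0.45) lower, while Ptpn2 was at 0.79 and turned to −0.38 with the offset. Ifngr1 (0.11, SE 0.092) and Ifngr2 (0.13, SE 0.079) did not pass the test. The classical targets had 2 of 12 higher and 4 lower, with Cd40 (−0.74) and Irf5 (−0.32) lower and Fpr2 (0.95) higher, while Cd86 (0.74) turned to −0.046 with the offset. The haem list had 2 of 7 higher and 3 lower, with Cd5l (−0.64), Ftl1 (−0.49) and Fth1 (−0.41) lower, while Adam17 (0.61) turned to −0.15 with the offset. Jak1, Irf5 and Fpr2 were not called with the offset.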

How the data were processed

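RNA was sequenced from 12 BMDM cultures in 4 groups of 3 libraries. The authors ran Trim Galore on paired-end reads and Salmon on the trimmed reads. The deposited values are whole numbers, read here as Salmon's estimated counts of each gene, and are not normalized. The genome build, the version and bias options of Salmon and its strand setting are not given in the sources used here. Column names gave the group of each library, and libraries are numbered 1 to 3 in column order within a group. Total counts were 8935609 to 14358180 per library.

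Tests were run with edgeR 4.0.16 under R 4.3.3 (TMM, filterByExpr by group, robust quasi-likelihood test of 4 group means in all 12 libraries, Benjamini-Hochberg adjustment over 10822 genes). SE are approximate, being the log2 fold change over the root of F. CPM use TMM factors, and log2 CPM for correlations a prior count of 2. DESeq2 1.42.0 and limma-voom (limma 3.58.1) were alternatives, beside other scalings, filters, a replicate block, libraries left out and an offset for GC content and exon length (natural splines, 5 degrees of freedom). GC content, length and positions came from GENCODE M21 on GRCm38, matched by symbol for 12707 genes and by another symbol for 195. Promoters came from RefSeq. The test was checked on simulated counts.

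The members and lists were chosen with earlier results of these data known. Named genes were all members, Prkab1, called genes of each list (at most 4 a contrast, smallest p first), receptor chains, STAT factors and ligands, and the 2 genes most correlated with each tested member. A few genes that the rule would name are not reported here. Genes listed nowhere in the counts used are called not analysed here.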

Additional observations from a re-analysis of the deposited data

Results flagged for a closer look

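For 2 genes of the lists around the members, edgeR called a difference in the response to PF between the genotypes. This was the test of the difference itself (WT minus AMPKβ1-/-, with adjustment over all tested genes). Of all tested genes 0.176% were called higher by it and 0.240% lower. Both calls were lost under some of the alternatives given below. Bcl3 had a difference of −0.96 on the log2 scale (edgeR adjusted p = 0.0196). It was at 41.6, 39.8 and 45.3 CPM in WT vehicle libraries, at 28.6, 27.9 and 21.6 CPM in WT PF libraries, and at 33.7 to 47.4 CPM in the 6 AMPKβ1-/- libraries. With the GC and length offset the difference was −0.82 (edgeR adjusted p = 0.00286). The adjusted p ranged from 6.44e-05 to 0.0808 over 22 alternatives, 17 of which called it. It was not called without AMPKβ1-/- vehicle library 2 or 3 or without any 1 of the 3 AMPKβ1-/- PF libraries, where the adjusted p was 0.0529 to 0.0808. Clec4d had a difference of 0.56 (edgeR adjusted p = 0.0358). It was at 171 to 198 CPM in WT vehicle libraries, at 247 to 267 CPM in WT PF libraries and at 299 to 350 CPM in AMPKβ1-/- libraries. With the offset it was 0.23 and was not called (edgeR adjusted p = 0.762). Of 22 alternatives 13 called it, and the adjusted p ranged from 0.000227 to 0.762. Leaving out 1 library also ended the call for 8 of the 12, namely vehicle library 1 of WT, vehicle libraries 2 and 3 of AMPKβ1-/-, PF libraries 2 and 3 of WT and each PF library of AMPKβ1-/-, with adjusted p of 0.0730 to 0.133.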

How the results depend on the processing

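Il10ra and Il4ra had an adjusted p below 0.05 with PF in WT BMDMs under every alternative run, and the number of members called there was 2 to 3 when a library was left out. No alternative called a member for PF in AMPKβ1-/- BMDMs. The difference in response gave 1 call with DESeq2, 1 with the GC and length offset and 0 to 2 with a library left out. The genotype comparison gave 1 call with library size alone under vehicle and 1 to 3 with a library left out under PF. Asking for a log2 fold change beyond 0.8 as well left 0 members for PF in WT, 0 for the genotypes with vehicle and 1 with PF. Library numbers only name the libraries, since same-numbered libraries correlated between −0.17 and 0.32 in their deviations and at most 4 of 6 libraries of a contrast correlated best with their own number. With replicate number as a block the members called numbered 3 for PF in WT, 0 for PF in AMPKβ1-/-, 0 for the difference, 2 for the genotypes with vehicle and 2 with PF. Mean CPM scaled by library size alone moved by more than 1 SD for Clec10a (10.2) and Il10ra (293) in WT vehicle and for Il4ra (120) and Il10ra (305) in AMPKβ1-/- PF libraries. For the genes with a changed sign below, the cause was not tested.

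The GC and length offset also lowered the median of all tested genes in each contrast. With it the sign changed for Mrc1 with PF in WT (−0.24), with PF in AMPKβ1-/- (−0.066), in the difference (−0.17) and between genotypes with vehicle (−1.14) and PF (−0.97). It also changed with PF in WT for Sat1 (−0.17), Clec4d (−0.15) and Il13ra1 (−0.28), and between genotypes with vehicle for Ptpn2 (−0.38), Cd86 (−0.046), Clec4d (−0.23), Clec4a2 (−0.32), Adam17 (−0.15) and Ifngr1 (−0.18). With library size alone it changed between genotypes with vehicle for Acod1 (0.078), Il10ra (0.097), Il10rb (0.099) and Stat3 (0.0073), and in the difference for Cd163 (0.033). Upper quartile scaling did so for Cd163 (0.0032) in the difference. Leaving out 1 library gave ranges across 0 with PF in WT for Acod1 (−0.043 to 0.59), Cd163 (−0.099 to 0.89) and Il13ra1 (−0.12 to 0.54), and with PF in AMPKβ1-/- for Clec10a (−0.0063 to 0.12). It did so in the difference for Mrc1 (−0.12 to 0.17) and Cd163 (−0.64 to 0.35), between genotypes with vehicle for Mrc1 (−0.0048 to 0.26) and Acod1 (−0.31 to 0.14), and with PF for Mrc1 (−0.013 to 0.27) and Clec10a (−0.087 to 0.24). Depth limits Arg1, Chil3, Mgl2, Nos2 and Cd163, which had at most 24 counts in a library.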
